A study of Mus musculus with 6 samples.

Results

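The amino acid transporter families of the mouse colon epithelium were examined in RNA sequencing (RNA-seq) data from 6 mice, 3 *Zfp90*fl/fl and 3 *Zfp90*ΔIEC. The members are the protein-coding genes whose symbol is Slc1a, Slc3a, Slc6a, Slc7a, Slc36a, Slc38a or Slc43a followed by a number, and 61 of the 52550 genes listed fitted this rule. All mice were male, of the C57BL/6 strain and aged 6 to 8 weeks at the start per the labels. Both groups carried floxed *Zfp90* alleles and received 1 injection of azoxymethane (AOM, a carcinogen) at 10 mg/kg, followed by 3 cycles of 7 days of dextran sulfate sodium (DSS, which injures the colon lining) in the drinking water and 14 days of regular water, and they were killed on day 80. The labels give 2% DSS, and the study's methods a higher percentage. No untreated mice and no mice with Cre alone were analysed here. In *Zfp90*ΔIEC mice the gene is deleted in intestinal epithelial cells by a Cre recombinase under the Villin promoter, and the *Zfp90*fl/fl mice were littermates. The genotypes were housed apart after weaning, so cage and genotype cannot be told apart. The genotype label of 2 *Zfp90*ΔIEC samples carries another gene number, and their titles were used to group them.

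Amino acids cross cell membranes only through carrier proteins, and most of these belong to the solute carrier (SLC) superfamily. SLC1 carriers take up glutamate or small neutral amino acids with sodium, SLC6 carriers use sodium and chloride, and SLC38 carriers move glutamine and other small neutral amino acids. Of the SLC36 carriers, SLC36A1 is coupled to protons, and of the SLC43 carriers, SLC43A1 and SLC43A2 let large neutral amino acids pass by facilitated diffusion. SLC7 proteins are either cationic amino acid carriers that work alone or light chains that need a heavy chain of the SLC3 family to reach the membrane. In the colon these carriers feed the epithelium from the blood side and can recover amino acids left in the lumen.

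Values are FPKM, fragments scaled to the length of the transcript and to the mapped fragments of the library, so that levels of different genes can be set side by side. *Zfp90* itself was at 0.490 to 0.630 FPKM in *Zfp90*fl/fl mice and at 0.0846 to 0.195 FPKM in the *Zfp90*ΔIEC mice. Depth is not stated, and an estimate from the steps between low values was 26.0 to 28.8 M fragments per sample. At that depth 1 fragment on a transcript of 2 kb is worth 0.0174 to 0.0192 FPKM. All 12 epithelial markers examined passed the filter on low values described below, and they summed to 10592 to 13014 FPKM in *Zfp90*fl/fl and to 13465 to 17270 FPKM in *Zfp90*ΔIEC mice. *Car1* carried the higher sum, with means of 4706 and 7871 FPKM. Of the 12 markers, 6 were lower in mean, *Krt8*, *Krt19*, *Epcam* and *Cdh1* among them, and 6 higher. The genotypes did not overlap in 4 markers that were higher, *Car1*, *Krt18*, *Muc2* and *Slc26a3*, and in 0 that were lower, against 8.73% and 12.6% of all genes tested. The 6 markers of small intestinal enterocytes summed to 174 to 211 and 280 to 463 FPKM, nearly all of it *Fabp2* (means of 185 and 354 FPKM), with *Fabp6* lower in mean, *Sis*, *Lct* and *Mttp* under 0.4 FPKM and overlapping, and *Apoa4* at 0 in every sample. Fibroblast and smooth muscle markers summed to at most 0.759 FPKM and endothelial markers to at most 0.489 FPKM in any sample. The summed macrophage and dendritic cell markers were at 4.57 to 5.63 FPKM in *Zfp90*fl/fl mice and at 1.60 to 2.89 FPKM in the *Zfp90*ΔIEC mice, with 7 of 8 markers lower in mean and *Cd163* at 0 in every sample. The 8 neutrophil markers summed to 25.2 to 47.2 and 21.9 to 33.0 FPKM, nearly all of it *Ly6g*, and 6 of the 8 were lower in mean. *S100a8*, *S100a9* and *Cxcr2* were above 0 in every *Zfp90*fl/fl mouse and listed at 0 in every *Zfp90*ΔIEC mouse, and *Csf3r* was at 0.260 to 0.277 FPKM against 0, 0 and 0.0180 FPKM (adjusted p = 0.0177, limma, all genes above 0). The 8 T and NK cell markers summed to 4.50 to 12.5 and 3.58 to 5.17 FPKM, and all 8 were lower in mean. In bulk RNA, fewer cells of a type and less RNA per cell cannot be told apart, and the part of all these cells in the differences below was not tested.

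Of the 61 members, 25 reached at least 1 FPKM in at least 3 samples and were tested, among 11564 genes in all. The tested members were 3 of the 7 in the Slc1a family, both Slc3a genes, 6 of 19 in Slc6a, 7 of 15 in Slc7a, 2 of 4 in Slc36a, 5 of 11 in Slc38a and 0 of 3 in Slc43a. The levels were uneven, with 11 tested members at a mean of at least 10 FPKM and 12 under 5 FPKM. *Slc6a14*, which encodes the carrier ATB0,+ for neutral and cationic amino acids, stood at the top with a mean of 246 FPKM over the 6 mice and ranked 134 among the 11564 genes tested. *Slc38a2*, the widely expressed sodium-coupled carrier SNAT2, came next at 65.3 FPKM, and *Slc6a14* was 3.77 times as high. Both stood clear of the next member in every mouse. *Slc6a8*, the creatine transporter, followed at 46.0 FPKM, *Slc1a5*, the glutamine carrier ASCT2, at 34.1 FPKM, and *Slc6a6*, the taurine transporter, at 19.1 FPKM. The ranges of *Slc6a8* and *Slc1a5* met, whereas *Slc6a6* lay apart from its neighbours on both sides. From *Slc36a1* at 12.2 FPKM down to *Slc38a1* at 7.07 FPKM, the ranges of 8 neighbouring members overlapped, so their order is not set beyond the spread between mice.

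**Figure D1:**
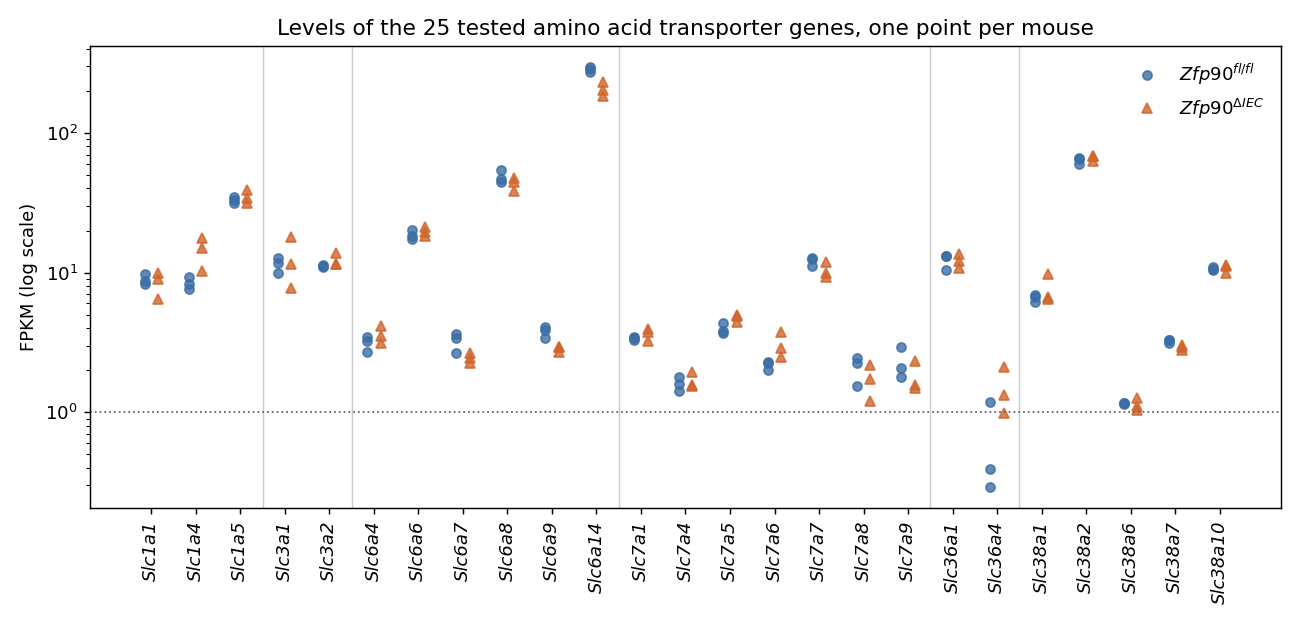
FPKM of the 25 tested members on a log axis, 1 point per mouse, circles for *Zfp90*fl/fl and triangles for *Zfp90*ΔIEC, with vertical lines between families and a dotted line at 1 FPKM. *Slc6a14* sits alone at 185 to 297 FPKM, and *Slc36a4* at the bottom spans 0.290 to 2.11 FPKM.

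The genotypes were compared with limma on log2(FPKM + 1), a scale that understates the change of genes below a few FPKM, and p-values were adjusted by Benjamini-Hochberg over all 11564 genes. No member passed an adjusted p under 0.05, against 23 of all genes (0.199%). At an adjusted p under 0.1, 1 member passed, *Slc6a14*, against 1.52% of all genes. At an unadjusted p under 0.05 in limma, 4 of the 25 members were higher in the *Zfp90*ΔIEC mice and 3 were lower, where all genes gave 6.56% higher and 8.09% lower. The mice of the genotypes did not overlap in 4 members that were higher and 4 that were lower, 16.0% each way, against 8.73% and 12.6% of all genes. The median log2 fold change was 0.03 over the members and -0.02 over all genes, and 14 of the 25 lay above 0 (56.0%, against 42.8% of all genes). The members are few, and these shares are given only beside the background. In samples simulated with the spread of these genes, 200 of 11564 genes were shifted by 1 on the log2(FPKM + 1) scale. The same test recovered 92.5% of them, with 10 false calls. The shifted genes had a mean above 1 on that scale, and at low levels such a shift is more than a 2-fold change in FPKM. Differences as small as most of those below were not part of that trial, so it does not give the power for them.

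**Figure D2:**
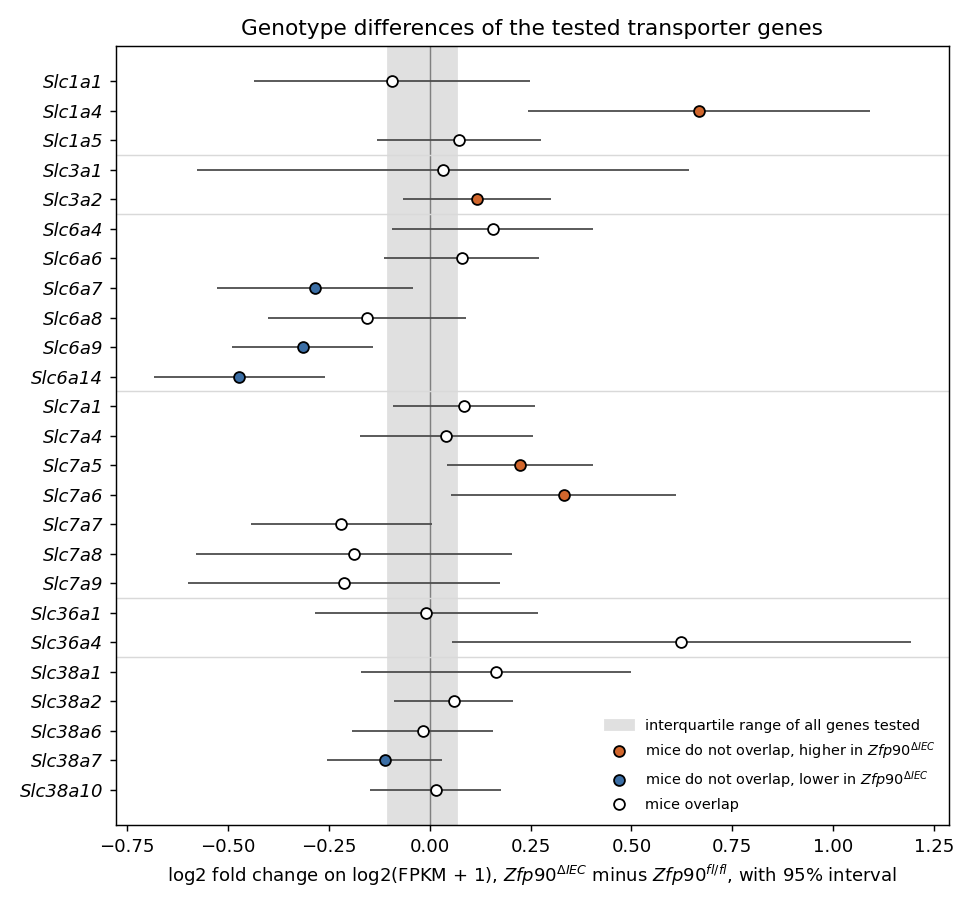
Log2 fold change of each tested member, *Zfp90*ΔIEC minus *Zfp90*fl/fl, with 95% intervals from limma, grouped by family, over a grey band for the interquartile range of all genes (-0.10 to 0.07). *Slc1a4* at 0.67 and *Slc6a14* at -0.47 are the farthest of the members whose mice did not overlap, and *Slc36a4* at 0.62 has overlapping mice.

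The Slc6a family showed the largest difference in level between the genotypes, and it lay in *Slc6a14*. This carrier imports nearly all neutral and cationic amino acids against steep gradients and is known to be raised in inflamed and cancerous colon. The study reports fewer and smaller colon tumours and milder colitis in *Zfp90*ΔIEC mice after AOM and DSS. The part of tumours and inflammation in the *Slc6a14* level was not tested. *Slc6a14* was at 285, 275 and 297 FPKM in the 3 *Zfp90*fl/fl mice (replicates 1 to 3, in this order here and below) and at 203, 185 and 232 FPKM in the 3 *Zfp90*ΔIEC mice. Every *Zfp90*ΔIEC mouse was below every *Zfp90*fl/fl mouse. The means were 286 ± 10.8 and 207 ± 24.2 FPKM (SD, n = 3 each), so that the *Zfp90*fl/fl level was 1.38 times the *Zfp90*ΔIEC level. The log2 fold change was -0.47 (standard error, SE, of 0.0897, 95% interval -0.68 to -0.26, adjusted p = 0.0927, limma), short of the threshold. The gene lies on chromosome X, and its exons share no bases with another annotated gene. RefSeq's window from 250 bases before to 50 after its start, at chrX:21714650-21714949 on the plus strand of GRCm38.p6, is shown because this member had the lowest p of the families, and it is in lower case throughout because none of the 3 motifs searched was found in it.
*Slc6a14*: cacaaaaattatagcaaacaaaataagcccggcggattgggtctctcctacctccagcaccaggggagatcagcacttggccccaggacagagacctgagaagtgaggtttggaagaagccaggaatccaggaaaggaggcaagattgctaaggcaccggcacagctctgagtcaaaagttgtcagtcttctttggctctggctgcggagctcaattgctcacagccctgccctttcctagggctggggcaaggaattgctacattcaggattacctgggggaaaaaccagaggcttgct

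The other *Slc6a* genes were expressed at lower levels, and those tested differed less on the log2(FPKM + 1) scale. *Slc6a9*, the glycine transporter GLYT1, was at 3.90, 4.05 and 3.41 FPKM in *Zfp90*fl/fl mice and at 2.70, 2.91 and 2.92 FPKM in the *Zfp90*ΔIEC mice. The groups did not overlap, and the log2 fold change of *Slc6a9* was -0.31 (SE 0.0739, adjusted p = 0.134, limma). Of its exon bases, 30.2% are shared with genes on the opposite strand, *B4galt2*, *Ccdc24* and *Gm17114*, and whether strand was used in counting is not given in the sources used here. *Slc6a7*, which encodes a proline carrier known mainly from the brain, was at 3.60, 3.39 and 2.66 FPKM against 2.24, 2.45 and 2.66 FPKM. Its highest *Zfp90*ΔIEC mouse and its lowest *Zfp90*fl/fl mouse were equal to 3 digits, and the log2 fold change was -0.28 (SE 0.102, adjusted p = 0.279, limma). In the remaining tested genes of the family the mice overlapped. *Slc6a8* had means of 48.6 ± 5.33 and 43.5 ± 4.42 FPKM, *Slc6a6* 18.5 ± 1.45 and 19.6 ± 1.52 FPKM, and *Slc6a4*, the serotonin transporter, 3.12 ± 0.386 and 3.60 ± 0.489 FPKM (SD, n = 3 each). *Slc6a19*, the main neutral amino acid carrier of the small intestine, was low, at 0.163 to 0.357 FPKM, and its partner in the kidney, collectrin (*Cltrn*), was listed at 0 in every sample.

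Most of the difference in the Slc6a sum lay in *Slc6a14*. The 19 genes summed to 362, 351 and 379 FPKM in the *Zfp90*fl/fl mice and to 270, 259 and 308 FPKM in the *Zfp90*ΔIEC mice, and *Slc6a14* made up 71.2% to 78.9% of the sum. Without *Slc6a14* the sums were 75.3 to 81.8 and 67.0 to 75.7 FPKM and overlapped, and the log2 ratio of the mean sums was -0.10 in place of -0.38. Over all 61 members, *Slc6a14* contributed 50.4% to 50.7% of the FPKM in *Zfp90*fl/fl mice and at most 45.6% in the *Zfp90*ΔIEC mice. Its own mean difference was 79.2 FPKM, and the difference over all members together was 71.3 FPKM. The 60 other members summed to 279 ± 9.34 and 287 ± 12.1 FPKM (SD, n = 3 each), with overlapping mice.

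**Figure D3:**
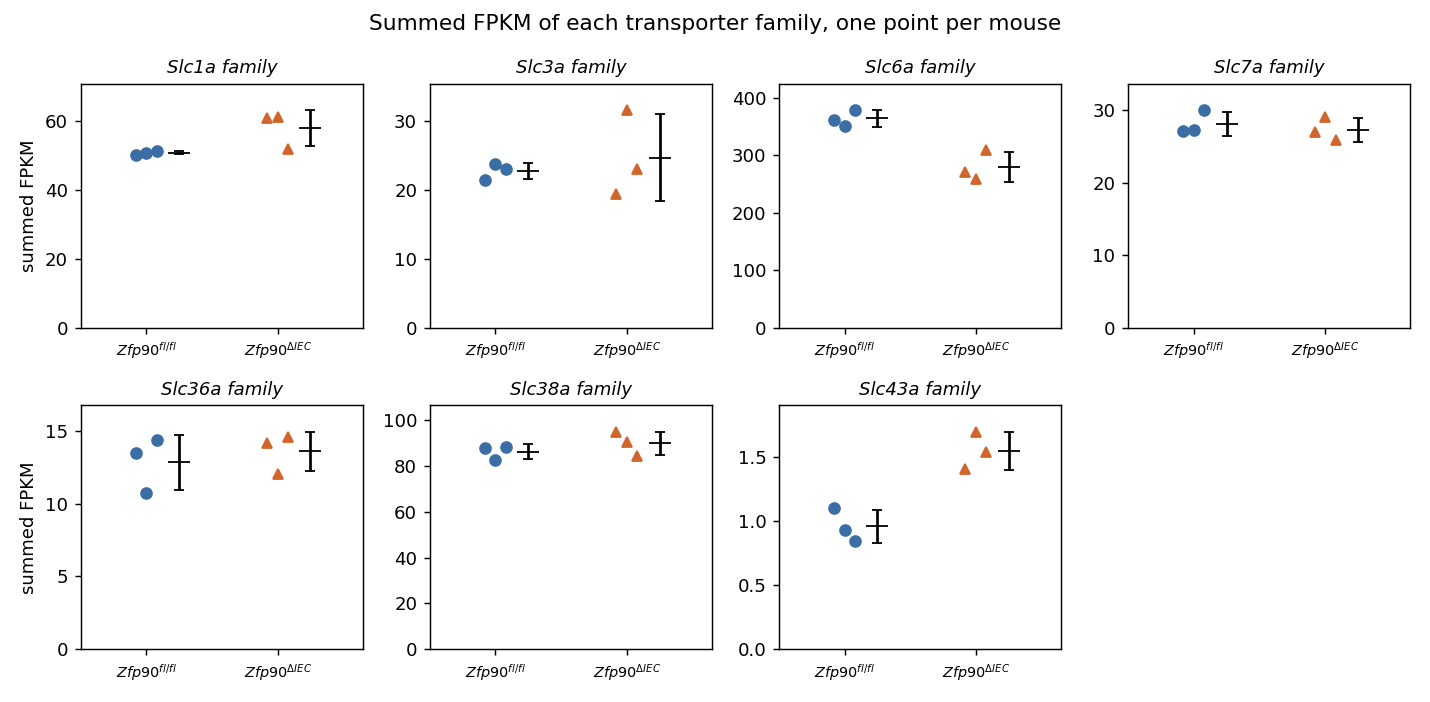
Summed FPKM of each family on axes that start at 0, 1 point per mouse, with the mean and SD (n = 3) beside them. The Slc6a sums do not overlap (351 to 379 against 259 to 308 FPKM). The Slc1a and Slc43a sums do not overlap either and are higher in the *Zfp90*ΔIEC mice. The nearest Slc1a sums are 51.1 FPKM in *Zfp90*fl/fl replicate 3 and 51.8 FPKM in *Zfp90*ΔIEC replicate 3. The other 4 families overlap.

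In the Slc1a family the neutral carrier *Slc1a4* (ASCT1, for alanine, serine, cysteine and threonine) was higher in the *Zfp90*ΔIEC mice, and the other genes were close between genotypes. *Slc1a4* was at 8.34, 9.26 and 7.66 FPKM in *Zfp90*fl/fl mice and at 15.0, 17.6 and 10.2 FPKM in the *Zfp90*ΔIEC mice. All 3 *Zfp90*ΔIEC mice were above the other genotype, with replicate 3 nearest to it. The means were 8.42 ± 0.801 and 14.2 ± 3.73 FPKM (SD, n = 3 each), 1.69 times as high in the *Zfp90*ΔIEC mice, and the log2 fold change was 0.67 (SE 0.179, 95% interval 0.24 to 1.09, adjusted p = 0.170, limma). With a mouse left out, the log2 fold change ran from 0.51 without *Zfp90*ΔIEC replicate 2 (adjusted p = 0.312, limma) to 0.87 without *Zfp90*ΔIEC replicate 3 (adjusted p = 0.0588, limma), and the highest adjusted p was 0.377, without *Zfp90*fl/fl replicate 3. Its close relative *Slc1a5* was at 33.3, 31.6 and 34.6 FPKM and at 39.2, 34.5 and 31.5 FPKM, with a log2 fold change of 0.07 and a 95% interval of -0.13 to 0.28. The ratio of *Slc1a4* to *Slc1a5* within a mouse was 0.222 to 0.293 in the *Zfp90*fl/fl and 0.324 to 0.510 in the *Zfp90*ΔIEC mice. *Slc1a1*, the epithelial glutamate and aspartate carrier, had means of 8.95 ± 0.743 and 8.43 ± 1.80 FPKM with overlapping mice. Of the exon bases of *Slc1a1*, 31.9% are shared with *4430402I18Rik* on the opposite strand. The glial and neuronal glutamate carriers *Slc1a2* and *Slc1a3* stayed under 0.1 FPKM in every mouse.

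ATF4, the transcription factor of the amino acid response, binds a composite C/EBP-ATF site in many amino acid transporter and synthesis genes. Which of the members are targets of ATF4 was not examined. The letters TGATGNAA, searched on both strands, stood in 3.97% of the 32851 RefSeq promoter windows. Windows were found for 18 of the 25 tested members, 27 in all, and 3 of these, of *Slc1a4* and *Slc7a7*, held a match. In *Slc1a4* the match lies on the reverse strand from base -4 to base 4 around the annotated start. The window, chr11:20332664-20332963 on the minus strand of GRCm38.p6, is printed 5′ to 3′ with the match in capitals. *Slc6a14*, *Slc6a9* and *Slc1a4* had the 3 lowest p of the tested members in limma. The windows of *Slc6a9*, which hold no match to TGATGNAA, are not printed. *Slc1a4* had the largest difference among the tested members on the log2(FPKM + 1) scale. By the ratio of mean FPKM, *Slc36a4* (2.37) and, under the filter, *Slc43a2* (2.40) were above *Slc1a4* (1.69).
*Slc1a4*: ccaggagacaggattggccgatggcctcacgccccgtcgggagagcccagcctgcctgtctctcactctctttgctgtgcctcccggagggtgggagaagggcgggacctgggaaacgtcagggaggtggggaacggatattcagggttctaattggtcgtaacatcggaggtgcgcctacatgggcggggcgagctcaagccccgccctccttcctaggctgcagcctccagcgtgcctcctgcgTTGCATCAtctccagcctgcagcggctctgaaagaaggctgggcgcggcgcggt
A match describes the letters only and is not evidence of binding. *Slc7a7*, the other gene with a match, was lower in mean in the *Zfp90*ΔIEC mice. The core of the antioxidant response element, TGACNNNGC, was found in 12.4% of all windows and in windows of *Slc6a9*, *Slc7a1*, *Slc7a6*, *Slc36a1* and *Slc38a2*, and the E-box CACGTG in 7.15% of all windows and in those of *Slc36a1* and *Slc38a7*, both motifs on either strand. In *Slc36a1* a match to the E-box overlaps that to TGACNNNGC.

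The heavy chains of the Slc3a family differed little between the genotypes. *Slc3a2* (4F2hc, also called CD98), the heavy chain of most SLC7 light chains, was at 11.4, 10.9 and 11.2 FPKM in *Zfp90*fl/fl mice and at 11.6, 13.7 and 11.4 FPKM in the *Zfp90*ΔIEC mice. The groups did not overlap, but their nearest mice were equal to 3 digits, and the log2 fold change was 0.12 (SE 0.0771, adjusted p = 0.537, limma). *Slc3a1* (rBAT), the heavy chain of the cystine carrier, varied most among *Zfp90*ΔIEC mice, at 7.78, 17.9 and 11.5 FPKM against 10.0, 12.8 and 11.8 FPKM. Its coefficient of variation was 12.2% among *Zfp90*fl/fl and 41.2% among *Zfp90*ΔIEC mice, and 26.5% of its exon bases are shared with *Prepl* on the opposite strand. Its light chain *Slc7a9* was at 1.48 to 2.91 FPKM with overlapping mice, so *Slc3a1* was 4.05 to 12.1 times as high as *Slc7a9*.

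Among the light chains that pair with *Slc3a2*, *Slc7a5* and *Slc7a6* were higher in every *Zfp90*ΔIEC mouse. *Slc7a5* (LAT1), which exchanges glutamine for leucine and other large neutral amino acids, was at 3.80, 3.68 and 4.35 FPKM and at 4.88, 4.99 and 4.44 FPKM, with a log2 fold change of 0.22 (SE 0.0762, adjusted p = 0.259, limma). *Slc7a6* (y+LAT2), which exchanges cationic for neutral amino acids, was at 2.01, 2.26 and 2.29 FPKM and at 3.74, 2.88 and 2.49 FPKM, with 0.33 (SE 0.118, adjusted p = 0.274, limma). *Slc7a7* (y+LAT1), the basolateral exporter of cationic amino acids in epithelia and the highest light chain, was at 11.2, 12.7 and 12.5 FPKM and at 9.87, 11.8 and 9.32 FPKM. Here the mice overlapped, and the log2 fold change was -0.22 with a 95% interval of -0.44 to 0.0060. *Slc7a7* is also expressed in macrophages, whose summed markers were lower in each *Zfp90*ΔIEC mouse, and the part of these cells in its level was not tested. *Slc7a8* (LAT2) was at 1.21 to 2.44 FPKM, with overlapping mice.

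The summed light chains overlapped between the genotypes, while the share of *Slc7a7* and the joint share of *Slc7a5* and *Slc7a6* did not. The sum of *Slc7a5*, *Slc7a6*, *Slc7a7*, *Slc7a8*, *Slc7a10* and *Slc7a11* was 20.6 ± 0.961 FPKM in the *Zfp90*fl/fl and 20.0 ± 1.49 FPKM in the *Zfp90*ΔIEC mice (SD, n = 3 each). *Slc7a7* made up 56.9%, 61.9% and 57.9% of the sum in the *Zfp90*fl/fl mice and 49.6%, 54.8% and 50.2% in the *Zfp90*ΔIEC mice. *Slc7a5* and *Slc7a6* together made up 29.4%, 28.9% and 30.7% against 43.3%, 36.6% and 37.4%. These shares were chosen after the values of the genes were seen, and they are given as a description with no test.

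**Figure D4:**
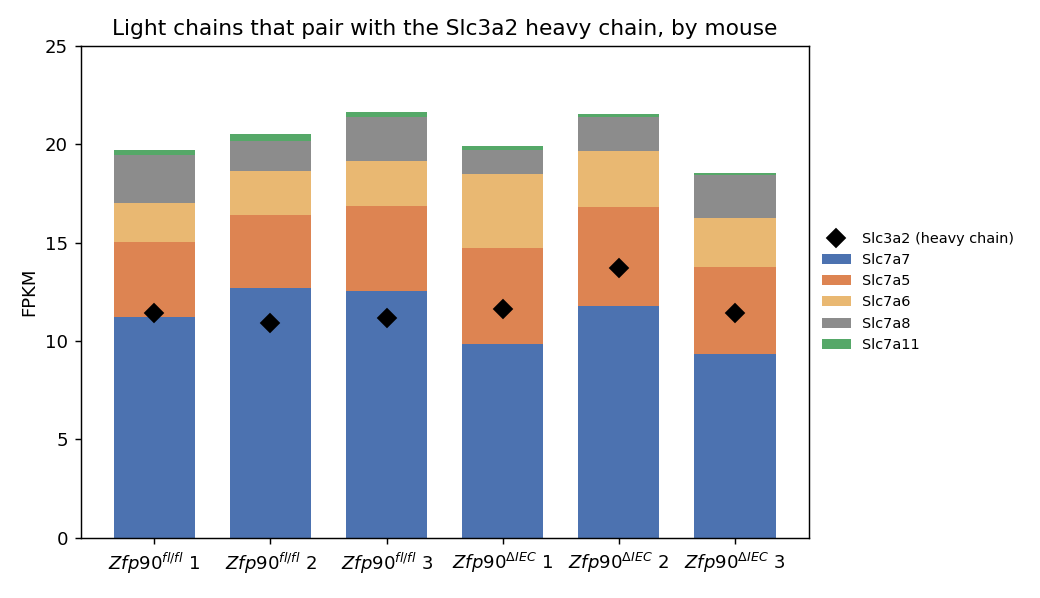
FPKM of the light chains that pair with *Slc3a2*, stacked by mouse from 0, with *Slc3a2* itself as a diamond (*Slc7a10* is at 0). The bars reach 18.6 to 21.6 FPKM in all mice, and the part of *Slc7a7* at the bottom is 49.6% to 54.8% in the *Zfp90*ΔIEC mice against 56.9% to 61.9%.

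Cystine and cationic carriers made up the rest of the Slc7a family. *Slc7a11* (xCT), which imports cystine in exchange for glutamate, was under the filter, at 0.268, 0.344 and 0.245 FPKM in *Zfp90*fl/fl mice and at 0.201, 0.121 and 0.132 FPKM in the *Zfp90*ΔIEC mice. All 3 *Zfp90*ΔIEC mice were lower, and the fit without the filter gave a log2 fold change of -0.16 (SE 0.0441, adjusted p = 0.318, limma). *Slc7a1* (CAT1), the cationic amino acid carrier of most cells, had means of 3.39 ± 0.0713 and 3.66 ± 0.363 FPKM, and *Slc7a4*, a relative for which transport has not been shown, 1.60 ± 0.176 and 1.68 ± 0.214 FPKM (SD, n = 3 each), both with overlapping mice. Of the exon bases of *Slc7a4*, 13.3% are shared with *P2rx6* on the opposite strand. The summed Slc7a family was 28.1 ± 1.69 FPKM in the *Zfp90*fl/fl and 27.3 ± 1.61 FPKM in the *Zfp90*ΔIEC mice (SD, n = 3 each).

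The Slc38a family was nearly level between the genotypes. *Slc38a2* was at 65.5, 60.3 and 66.1 FPKM and at 68.6, 67.8 and 63.5 FPKM, a log2 fold change of 0.06 with a 95% interval of -0.09 to 0.21. *Slc38a1* (SNAT1) had means of 6.56 ± 0.382 and 7.59 ± 1.83 FPKM, *Slc38a10* 10.7 ± 0.332 and 10.8 ± 0.821 FPKM, and *Slc38a6* 1.16 ± 0.00962 and 1.13 ± 0.112 FPKM (SD, n = 3 each), with overlapping mice in all 3 genes. *Slc38a7*, a glutamine carrier of lysosomes, was the exception, at 3.13, 3.29 and 3.28 FPKM against 2.92, 3.05 and 2.79 FPKM. Its mice did not overlap, and the log2 fold change was -0.11 (SE 0.0604, adjusted p = 0.449, limma). *Slc38a9*, the lysosomal arginine sensor upstream of mTORC1, was under the filter at 0.501 to 0.627 FPKM in all mice.

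In the Slc36a family, *Slc36a1*, the proton-coupled carrier of lysosomes and of the brush border, had means of 12.2 ± 1.63 and 12.1 ± 1.42 FPKM (SD, n = 3 each) and a log2 fold change of -0.0084 with a 95% interval of -0.28 to 0.27. *Slc36a4*, a high-affinity carrier of proline and tryptophan, was spread widely, at 0.290, 0.390 and 1.18 FPKM in *Zfp90*fl/fl mice and at 2.11, 1.32 and 0.989 FPKM in the *Zfp90*ΔIEC mice. The mice overlapped, and the log2 fold change of 0.62 (SE 0.240, adjusted p = 0.308, limma) rested on a level near that of the filter.

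None of the Slc43a family passed the filter. *Slc43a2* (LAT4), which lets branched-chain amino acids and phenylalanine leave epithelial cells, was at 0.577, 0.223 and 0.143 FPKM in *Zfp90*fl/fl mice and at 0.645, 0.870 and 0.752 FPKM in the *Zfp90*ΔIEC mice. The groups did not overlap, with a log2 fold change of 0.43 (SE 0.133, adjusted p = 0.364, limma, all genes above 0). *Slc43a1* (LAT3) was at 0.376 to 0.556 and 0.555 to 0.670 FPKM, and *Slc43a3* at 0.147 to 0.155 and 0.0902 to 0.228 FPKM, both with overlapping mice. The 3 genes of the family summed to 0.958 ± 0.129 and 1.55 ± 0.146 FPKM (SD, n = 3 each).

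Of the 36 members under the filter, 9 were listed at 0 in all samples and none reached 1 FPKM in any sample, with 0.870 FPKM as the highest value. The genotypes did not overlap in 2 of the 27 members above 0 that were higher and in 3 that were lower, where the 16241 genes under the filter gave 4.04% and 6.23%. Besides *Slc43a2* and *Slc7a11*, these were *Slc6a12*, the betaine and GABA transporter, at 0.148 to 0.276 and 0.129 to 0.136 FPKM, *Slc7a3*, at 0.0533 to 0.107 and 0.00868 to 0.0494 FPKM, and *Slc38a5*, listed at 0 in *Zfp90*fl/fl mice and at 0.0151 to 0.0644 FPKM in the *Zfp90*ΔIEC mice. The last 2 of these were named after their values were seen, and they rest on a few fragments.

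**Figure D5:**
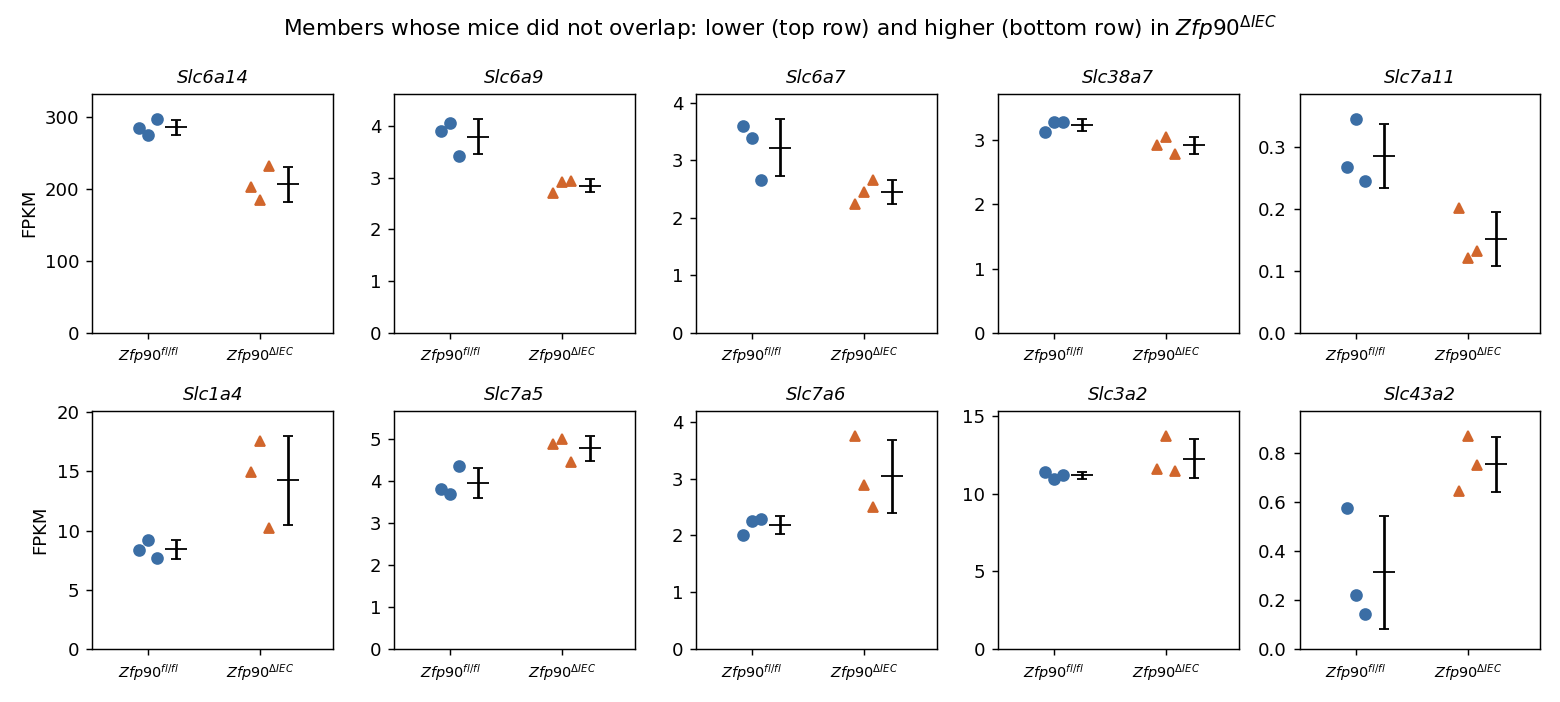
FPKM of the 8 tested members, and of *Slc7a11* and *Slc43a2* under the filter, whose mice did not overlap between the genotypes, 1 point per mouse with mean and SD (n = 3), each axis from 0. *Slc6a14*, *Slc6a9*, *Slc6a7*, *Slc38a7* and *Slc7a11* are lower in the *Zfp90*ΔIEC mice (top row) and *Slc1a4*, *Slc7a5*, *Slc7a6*, *Slc3a2* and *Slc43a2* higher (bottom row).

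Genes that act with the transporters were read from lists of known genes, and none of them passed an adjusted p under 0.05 in limma either. The list of 22 targets of the amino acid response holds no member of the transporter families. Of these targets, 20 were tested with a median of 0.08, and 16 had a log2 fold change above 0, as had 42.8% of all genes. At an unadjusted p under 0.05 in limma, 4 of the 20 were higher and 0 lower, where all genes gave 6.56% and 8.09%. *Phgdh*, the first enzyme of serine synthesis, was at 3.98, 3.76 and 4.38 FPKM against 5.03, 7.05 and 5.36 FPKM, a log2 fold change of 0.43 (SE 0.117, adjusted p = 0.177, limma). *Mthfd2*, of mitochondrial folate metabolism, followed at 0.35 (adjusted p = 0.322, limma). *Atf4* itself had a log2 fold change of 0.06 with overlapping mice. Of 23 genes of lysosomal amino acid sensing and mTORC1, 19 were tested with a median of 0.0056 and 0 with an unadjusted p under 0.05 in limma, and among those tested *Sesn1* at -0.19 and *Mlst8* at -0.10 were farthest from 0. Under the filter, *Castor1* and *Castor2*, which encode cytosolic arginine sensors or their relatives, and *Rragd*, a Rag GTPase, were higher in every *Zfp90*ΔIEC mouse. *Castor1* was at 0.256, 0.340 and 0.426 FPKM against 1.08, 0.682 and 0.567 FPKM (log2 fold change 0.40, adjusted p = 0.354, limma, all genes above 0). *Castor2* was at 0.294, 0.312 and 0.337 FPKM against 0.604, 0.686 and 0.509 FPKM (0.28, adjusted p = 0.205 in the same fit), and *Rragd* stayed under 0.2 FPKM. These genes were named after their values were seen.

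Of 11 tested genes among other amino acid and peptide transporters, 6 lay above 0 (42.8% of all genes), the median was 0.03, and 1 was higher and 0 lower at an unadjusted p under 0.05 in limma (6.56% and 8.09% of all genes). *Slc6a20a*, a proline carrier whose symbol falls outside the rule, had -0.31 (adjusted p = 0.355, limma), and *Slc25a15*, the mitochondrial ornithine carrier, 0.18 (adjusted p = 0.306, limma). Under the filter, *Slc15a3* was lower without overlap, at 0.113, 0.0910 and 0.0999 FPKM against 0.0143, 0.0127 and 0 FPKM (log2 fold change -0.13, adjusted p = 0.108, limma, all genes above 0). *Slc16a10*, also under the filter, was higher without overlap (0.14, adjusted p = 0.631 in the same limma fit). Both were named after their values were seen. Among 8 tested partners and regulators, of which 2 were higher and 0 lower at an unadjusted p under 0.05 in limma (6.56% and 8.09% of all genes), *Cd44*, a partner of *Slc7a11* at the membrane, was at 6.04, 5.92 and 5.34 FPKM against 10.6, 8.77 and 7.15 FPKM, with 0.52 (adjusted p = 0.134, limma). *Nedd4*, a ubiquitin ligase, had 0.50 (adjusted p = 0.401, limma). *Sgk1*, a kinase known to raise the surface level of several of these carriers, was named after its values were seen, at 27.8, 28.6 and 25.1 FPKM against 37.7, 42.5 and 34.4 FPKM (log2 fold change 0.47, adjusted p = 0.0927, limma). Among 11 tested genes of glutathione metabolism and antioxidant defence, the median was -0.07. At an unadjusted p under 0.05 in limma, 1 was lower and 0 higher (8.09% and 6.56% of all genes). *Gpx1* had the largest difference, -0.89 (adjusted p = 0.522, limma), which lay in *Zfp90*ΔIEC replicate 2 at 25.5 FPKM against 121 to 143 FPKM in all other mice. *Srxn1*, which repairs oxidised peroxiredoxins, followed at -0.68 (adjusted p = 0.266, limma). *Ggt1*, which splits extracellular glutathione and lay under the filter, was at 0.411, 0.233 and 0.233 FPKM against 0.766, 0.804 and 0.847 FPKM, without overlap (log2 fold change 0.49, adjusted p = 0.156, limma, all genes above 0), and was named after its values were seen.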

How the data were processed

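RNA-seq of colon epithelium, isolated with EDTA and DTT, was available for 3 mice per genotype. The authors deposited 1 file of FPKM values by gene for each mouse. Per the labels, FastQC, STAR 2.5, Cuffnorm and DESeq 1.22.1 were used with build mm9, whereas the study's methods name TopHat, Cuffdiff and a human genome. The file headers do not name the unit, which was taken from these tools and from the values, and the gene identifiers are of mouse. Symbols, biotypes and coordinates were taken from GENCODE M21 (GRCm38), in which 52403 of 52550 identifiers had a symbol. No coordinates of mm9 were used. Promoter windows are from RefSeq (GRCm38.p6).

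Values were transformed to log2(FPKM + 1), and the 11564 genes that reached 1 FPKM in 3 or more samples were fitted with limma 3.58.1 (R 4.3.3, intensity trend, Benjamini-Hochberg adjustment, threshold 0.05). Members under the filter take their statistics from a fit of all genes with a value above 0. The fit was tested on simulated data. Family sums and shares carry no test. Depth was estimated from single-transcript genes, with 53.6% to 57.7% of low values within 0.1 of a whole fragment. With 3 mice per genotype, p-values set the difference between the groups against the spread between these mice, and they cannot separate genotype from cage. Sums and shares were computed in Python 3.11.15 with pandas 2.3.3 and numpy 2.4.6, and matplotlib 3.10.9 drew the plots.

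Members and lists were chosen with earlier results of these data known. Values are given for every tested member, and by name for members under the filter whose groups did not overlap with the higher group at 0.1 FPKM or more in each mouse. From each fixed list the 2 genes of largest absolute fold change were named. Alternatives were a pseudocount of 0.1, no filter, a filter at 0.1 FPKM, quantile normalization, median ratio scaling, the replicate number as a block, no intensity trend, an adjusted p under 0.1, and leaving out each mouse.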

Additional observations from a re-analysis of the deposited data

How the results depend on the processing

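No tested member passed an adjusted p under 0.05 in limma in any of the 13 other fits of each, and the lowest adjusted p was 0.0588, for *Slc1a4* without *Zfp90*ΔIEC replicate 3. Of 325 such values, 308 kept their direction, and 17 with the opposite sign belonged to 8 members with log2 fold changes of -0.09 to 0.17. Between 1 and 4 members were higher and 2 to 4 lower at an unadjusted p under 0.05 in limma. With a mouse left out, the log2 fold changes of these 8 ran from -0.21 to 0.070 for *Slc1a1*, -0.0075 to 0.14 for *Slc1a5*, -0.25 to 0.30 for *Slc3a1*, -0.023 to 0.091 for *Slc7a4*, -0.12 to 0.069 for *Slc36a1*, -0.0032 to 0.26 for *Slc38a1*, -0.059 to 0.013 for *Slc38a6* and -0.022 to 0.073 for *Slc38a10*. Quantile normalization gave 0.0039 for *Slc36a1* and 0.0095 for *Slc38a6*, and median ratio scaling 0.013 for *Slc36a1*. The count of all genes past the threshold was 23. It was 13 with a pseudocount of 0.1, 15 without the filter and 31 with the filter at 0.1 FPKM. Quantile normalization gave 20 such genes, median ratio scaling 25 and the fit without an intensity trend 21. With a mouse left out the count was 10 to 21, the lowest without *Zfp90*fl/fl replicate 2. At an adjusted p under 0.1 it was 176, 1 of them a member.

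With the replicate block, 47 genes passed, 18 of them among the 23, and 0 members. The deviations from the group means of equally numbered samples had correlations of 0.19, 0.11 and 0.078 across genes. Samples of unequal number were not compared, so these values cannot decide whether the numbers mark pairs. The main fit did not take the numbers as pairs.

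Without its highest member, the log2 ratio of a family's summed FPKM moved from 0.19 to 0.38 for Slc1a, from -0.38 to -0.10 for Slc6a, from -0.043 to 0.087 for Slc7a, from 0.08 to 1.23 for Slc36a and from 0.69 to 1.00 for Slc43a. With a mouse left out these ratios ran from 0.15 to 0.27 for Slc1a, -0.10 to 0.26 for Slc3a, -0.46 to -0.33 for Slc6a, -0.090 to 0.0076 for Slc7a, -0.033 to 0.17 for Slc36a, 0.019 to 0.10 for Slc38a and 0.61 to 0.80 for Slc43a. The Slc3a ratio without *Zfp90*ΔIEC replicate 2 turned negative, since that mouse held the highest *Slc3a1*. Median ratio scaling moved no family ratio by more than the spread between mice. Members under 1 FPKM rest on few fragments.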

Other observations

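*Slc7a6* lies close to the deleted gene. Both are on chromosome 8 of GRCm38, *Slc7a6* from 106168857 to 106198706 and *Zfp90* from 106415327 to 106426598, and 217 kb separate them. This position was looked up after the values were seen. Of the other members on that chromosome that were tested, *Slc38a7* lies 10.6 Mb and *Slc7a5* 15.5 Mb from *Zfp90*. Within 1 Mb of *Zfp90*, 43 genes were tested, *Slc7a6* among them, with a median log2 fold change of -0.04. None of the 43 passed an adjusted p under 0.05 in limma, and at an unadjusted p under 0.05 in limma 4 were higher and 2 lower in the *Zfp90*ΔIEC mice, where all genes gave 6.56% and 8.09%. The part of position in the *Slc7a6* difference was not tested.

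The spread between mice of a genotype differed widely among the transporter genes. The median coefficient of variation within a genotype was 10.0% over the tested members and 7.55% over all genes tested, a difference that was not tested. The steadiest member was *Slc38a6* in the *Zfp90*fl/fl mice (0.831%), and the least steady *Slc36a4* in the same mice (78.8%). In the *Zfp90*ΔIEC mice *Slc3a1* (41.2%), *Slc36a4* (39.0%) and *Slc7a8* (28.4%) varied most.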
